A study of Mus musculus with 24 samples.

Results

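The 38 genes described here encode enzymes that carry glucose carbon through glycolysis, the pyruvate dehydrogenase complex and the tricarboxylic acid (TCA) cycle, with a few enzymes that feed the cycle or shuttle its intermediates. They were taken from a list of gene names, without use of any measured value. All 38 were present among the 23845 genes of the RNA counts and the 20436 genes of the ribosome-protected fragment (RPF) counts, and all 38 passed the filter on low counts in both. RNA-seq and ribosome profiling, which sequences the mRNA fragments covered by ribosomes (footprints), had been carried out on hippocampal slices of male mice aged 28 to 42 days. The mice were wild type (WT) or carried 1 inactive germline copy of Tsc2 (Tsc2+/-), which the study made by crossing a floxed Tsc2 allele with CMV-Cre, a Cre expressed in nearly all cells. Slices of both genotypes received either vehicle, which was artificial cerebrospinal fluid, or 100 µM DHPG for 5 min, and then cycloheximide at 100 µg/ml. DHPG activates group I metabotropic glutamate receptors. The 4 groups were WT vehicle, WT DHPG, Tsc2+/- vehicle and Tsc2+/- DHPG, each with 3 RNA and 3 RPF libraries, and every library came from slices of several pooled mice. The p-values therefore measure the spread between pools of one group, not between single mice.

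Glycolysis splits glucose into pyruvate in the cytosol and yields a small amount of ATP. Pyruvate either becomes lactate through lactate dehydrogenase or enters mitochondria, where the pyruvate dehydrogenase complex turns it into acetyl-CoA and the TCA cycle oxidises the acetyl group to carbon dioxide. In brain, glucose is the main fuel, neurons depend heavily on oxidation in mitochondria, and several steps are run by isoenzymes with different distributions over neurons and glia. The Tsc2 protein, tuberin, restrains the kinase mTORC1, which is known in dividing cells to favour expression of glycolytic genes. The comparison of these genes over genotype and DHPG asks whether their RNA, their footprints or the footprints per RNA differed between the groups.

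RNA libraries held 14801679 to 24067838 counts and RPF libraries 5296006 to 13613673. The 38 genes took 1.146% to 1.277% of an RNA library and 2.099% to 2.207% of an RPF library. In RPF libraries of replicates 2 and 3, 97.9% to 98.5% of the non-zero counts were even, against 48.2% to 49.0% in replicate 1 and 48.5% to 49.7% in RNA. Tsc2 RNA, as a check of the labels, was 186 to 214 CPM (counts scaled to a common library total by TMM) in the WT libraries and 128 to 137 in the Tsc2+/- libraries, and its RPFs were 123 to 146 and 76.5 to 84.5 CPM. Summed markers of neurons (6 genes) were at 9434 to 11046 CPM in RNA, those of astrocytes (8 genes) at 2941 to 3220, those of oligodendrocytes (6 genes) at 4737 to 6115 and those of microglia (6 genes) at 169 to 229. Markers of CA3, the field that the study had cut off, still summed to 513 to 603 CPM over 6 genes, and Iyd was under 1 CPM in every RNA library of 3 of the 4 groups. Blood markers (4 of 5 genes found) summed to 16.3 to 35.2 CPM in WT and 2.59 to 17.7 CPM in Tsc2+/- RNA, with Hbb-bt under 1 CPM in every Tsc2+/- library and Alas2 in every library, and to at most 1.53 CPM in RPFs, and their part in the results below was not tested. In such bulk samples fewer cells of a type and less RNA per cell cannot be told apart.

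Many glycolytic genes have near-identical processed copies in the mouse genome, and the authors had kept only uniquely mapped reads. Every 30-base window of each coding sequence was therefore searched for in the rest of the genome (GRCm38.p6, the same build as mm10), with both strands and exact matches only. For 21 of the 38 genes no window was found elsewhere. For 14 genes at least 10% of windows were found elsewhere. The share was 100% for both Pgk1 and Pgam1, 96.97% for Gapdh and 89.4% for Eno1, and it was 0% for Eno2, Hk1 and Mdh1. The 60-base coding stretches below, read from the RefSeq genome, are shown because they differ in how much of a member's sequence is repeated in the genome. Each was the nearest to the middle of the coding sequence that lay in a single exon. Candidates with a copy on a set chromosome were passed over, so a stretch does not measure its gene's share of repeated windows. Capitals are bases inside a 30-base window that lies wholly within the stretch and also occurs elsewhere. Lower case marks bases in no such window, and windows that cross an edge of the stretch were not marked.

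Gapdh, chr6:125162961-125163020, minus strand: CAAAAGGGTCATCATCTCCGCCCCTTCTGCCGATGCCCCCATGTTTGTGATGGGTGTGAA
Pgam1, chr19:41915818-41915877, plus strand: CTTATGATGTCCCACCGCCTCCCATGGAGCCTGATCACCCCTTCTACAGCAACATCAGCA
Eno1, chr4:150246599-150246658, plus strand: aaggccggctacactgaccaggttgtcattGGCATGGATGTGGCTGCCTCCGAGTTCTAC
Eno2, chr6:124766105-124766164, minus strand: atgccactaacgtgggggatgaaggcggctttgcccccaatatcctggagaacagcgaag
Hk1, chr10:62286550-62286609, minus strand: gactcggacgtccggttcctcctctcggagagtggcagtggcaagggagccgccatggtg

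The middle 30-base window of the Gapdh stretch occurred at 52 other places and that of the Pgam1 stretch at 2. In the Eno1 stretch 30 of the 60 bases lay in a repeated window that fits wholly within the stretch. Genes with repeated windows were not without counts. Pgk1 and Pgam1, with every coding window elsewhere, held 1016 and 1149 footprints per kb in WT vehicle. The share of repeated windows thus describes the sequence, and its part in the levels was not tested. The comparisons between groups set a gene against itself, with the same windows in every library.

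Levels between genes are compared per length, as RNA reads per kb of transcript and footprints per kb of coding sequence, both scaled to the library's total count, without TMM. The values below are on this per-kb scale. In WT vehicle the members spanned a wide range. The median member was at 96.97 RNA reads per kb, against 8.33 over all 12541 genes with a length, and at 260 footprints per kb, against 16.7.

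**Figure D1:**
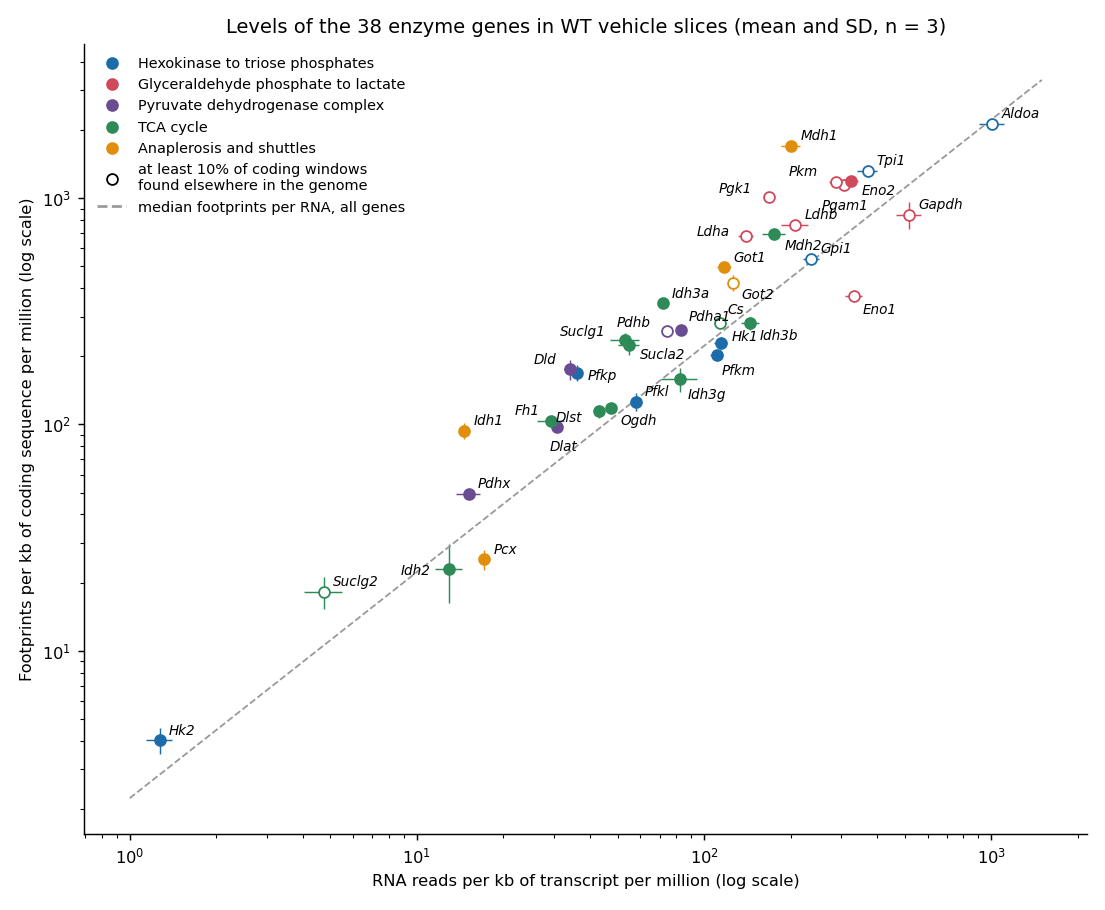
RNA reads per kb of transcript (x axis, log scale) against footprints per kb of coding sequence (y axis, log scale), both scaled to the library's total count, for the 38 genes in WT vehicle. Points are means of 3 libraries with SD, coloured by role, open where at least 10% of coding windows occur elsewhere, and the dashed line is the median ratio of all genes (2.23). Aldoa lies at the top right, Hk2 at the bottom left, Mdh1 well above the line and Eno1 below it.

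In the upper part of glycolysis, from glucose to the triose phosphates, aldolase A (Aldoa), which splits fructose bisphosphate, had the most RNA of all members. It was at 935, 968 and 1120 RNA reads per kb in the 3 WT vehicle libraries and at 2243, 2065 and 2112 footprints. Triose phosphate isomerase (Tpi1) followed at 371 ± 29.2 (SD, n = 3) RNA reads and 1325 ± 67.5 footprints, and glucose phosphate isomerase (Gpi1) at 236 ± 15.1 and 539 ± 22.7. Of these, Aldoa had 44.5%, Tpi1 36.6% and Gpi1 52.1% of coding windows elsewhere.

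Hexokinase, the entry step, was nearly all Hk1. Hk1 was at 108, 119 and 117 RNA reads per kb and Hk2, the form linked to growing and insulin-responsive tissue, at 1.31, 1.12 and 1.38. Over all 12 libraries of each assay Hk2 took 0.935% to 1.28% of the hexokinase RNA and 1.36% to 1.92% of its footprints. Hk2 was also the member with the fewest counts, 107 to 182 per RNA library and 42 to 153 per RPF library. The 3 genes of phosphofructokinase, the main control point of glycolysis, differed more in RNA than in footprints. Pfkm held 54.1% ± 1.22 (SD, n = 3) of the family's RNA in WT vehicle, Pfkl 28.3% ± 0.732 and Pfkp 17.6% ± 0.490. Of the family's footprints Pfkm held 40.6% ± 1.22, Pfkl 25.4% ± 0.546 and Pfkp 34.0% ± 0.780. Over all 12 libraries Pfkp was at 15.8% to 18.2% of the RNA and 32.3% to 34.6% of the footprints, ranges that did not overlap. None of the 3 genes had a coding window elsewhere.

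In the lower part, from glyceraldehyde phosphate to lactate, Gapdh, which oxidises glyceraldehyde phosphate, was at 474, 505 and 574 RNA reads per kb and at 711, 917 and 904 footprints. Phosphoglycerate kinase (Pgk1) had less RNA, 168 ± 6.33, and more footprints, 1016 ± 44.0, and phosphoglycerate mutase (Pgam1) was at 306 ± 19.8 and 1149 ± 62.5. All or nearly all coding windows of these 3 genes occur elsewhere. Pyruvate kinase (Pkm), which makes pyruvate and ATP, was at 288 ± 15.4 and 1182 ± 65.2. With the median length over its transcripts, Pkm was at 465 RNA reads and 1321 footprints. Its footprints per RNA were then 2.85 in place of 4.13.

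Enolase has a widely expressed form, Eno1, and a neuronal form, Eno2. Their RNA was nearly equal per kb of transcript in WT vehicle, at 311, 327 and 356 for Eno1 and 305, 322 and 344 for Eno2. Their footprints were not, at 382, 372 and 351 for Eno1 and 1242, 1149 and 1199 for Eno2. Eno2 thus held 49.4% ± 0.258 of the enolase RNA and 76.4% ± 0.908 of the enolase footprints (SD, n = 3). Eno1 is the member whose windows occur elsewhere, 89.4% against 0%, and the share of this in the difference was not tested. With coding length used for the RNA as well, Eno1 held 38.2% of the RNA in place of 50.6%. Of the lactate dehydrogenases, Ldhb, the heart form that favours pyruvate, had more RNA than Ldha, the muscle form. Ldha was at 40.3% ± 1.35 of the RNA and 47.0% ± 1.24 of the footprints in WT vehicle, and at 38.1% to 42.2% and 45.5% to 50.3% over all libraries. With coding length used for the RNA as well, Ldha was at 47.0% of the RNA, level with its share of the footprints. Ldha had 63.7% and Ldhb 56.9% of coding windows elsewhere, and the part of this was not tested.

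The pyruvate dehydrogenase complex is built from the E1 subunits Pdha1 and Pdhb, the E2 core Dlat, its binding partner Pdhx and the E3 subunit Dld, which other complexes share. Both E1 subunits were at like levels, with Pdha1 at 83.3 ± 2.93 RNA reads and 261 ± 4.80 footprints per kb and Pdhb at 74.6 ± 2.15 and 260 ± 5.31. The ratio of Pdha1 to Pdhb footprints was 0.977, 1.02 and 1.02 in the 3 libraries. Pdhb had 61.45% of coding windows elsewhere and Pdha1 5.90%, and the part of this was not tested. Dlat was lower, at 30.7 ± 0.950 and 97.04 ± 4.51, and Pdhx was the lowest, at 15.1 ± 1.499 and 49.5 ± 1.44. Dld had about as much RNA as Dlat, 34.1 ± 1.46, but 175 ± 17.2 footprints, and the ratio of Dlat to Dld was 0.901 ± 0.0153 in RNA and 0.556 ± 0.0383 in footprints. With coding length used for the RNA as well, these likenesses in RNA did not hold. Pdha1 to Pdhb then stood at a ratio of 1.98 ± 0.0764 in place of 1.12 ± 0.0431 in RNA, and Dlat to Dld at 1.27 ± 0.0215, above 1 in place of below.

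In the TCA cycle, mitochondrial malate dehydrogenase (Mdh2) was the most abundant of the 12 members, with 175 ± 15.5 RNA reads and 696 ± 37.8 footprints per kb. Citrate synthase (Cs), which joins acetyl-CoA to oxaloacetate, was at 114 ± 5.60 and 281 ± 8.80. The 3 subunits of the NAD-dependent isocitrate dehydrogenase showed a different order in the 2 assays. Idh3b, a regulatory subunit, had the most RNA, at 141, 136 and 157, followed by the regulatory Idh3g at 71.6, 80.8 and 95.6 and the catalytic Idh3a at 71.2, 71.5 and 73.3, and these latter genes overlapped. In footprints Idh3a led, at 336, 362 and 335, with Idh3b at 261, 298 and 280 and Idh3g at 142, 180 and 154. Idh3a to Idh3b was thus at a ratio of 0.498 ± 0.0295 in RNA and 1.23 ± 0.0485 in footprints, with no overlap between the libraries of the 2 assays. With coding length used for the RNA as well, the ratio in RNA was 0.826 ± 0.0490, still below that in footprints, and Idh3a then stood above Idh3g in RNA, at a ratio of 1.71 ± 0.221 in place of 0.882 ± 0.114. None of the 3 genes had a coding window elsewhere.

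Succinyl-CoA ligase pairs Suclg1 with an ATP-forming partner, Sucla2, or a GTP-forming one, Suclg2. Sucla2 and Suclg1 were alike, with ratios of 1.204, 1.01 and 0.908 in RNA and 0.807, 0.990 and 1.06 in footprints. Suclg2 was far lower, at 4.76 ± 0.722 RNA reads and 18.2 ± 2.91 footprints, and 72.8% of its coding windows occur elsewhere, whose part in this was not tested. Of the oxoglutarate dehydrogenase complex, Ogdh was at 118 ± 0.736 footprints and Dlst at 114 ± 7.90. Fumarase (Fh1) was at 104 ± 2.28, and Idh2, the NADP-dependent mitochondrial isocitrate dehydrogenase, at 29.8, 22.4 and 16.6 footprints, the widest spread in footprints of any member relative to its mean.

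The enzymes around the cycle were led by cytosolic malate dehydrogenase (Mdh1), part of the malate-aspartate shuttle that moves reducing equivalents into mitochondria. Mdh1 was at 195, 189 and 218 RNA reads per kb and at 1705, 1691 and 1718 footprints, and it held 53.4% ± 1.59 of the RNA but 71.0% ± 1.26 of the footprints of the 2 malate dehydrogenases. With coding length for both assays its share of the RNA was 62.5%, still below that of the footprints. Mdh1 had no coding window elsewhere and Mdh2 had 0.862%. The aspartate aminotransferases of the same shuttle, Got1 in the cytosol and Got2 in mitochondria, were close to equal, with Got1 at 48.3% ± 0.582 of the RNA and 54.0% ± 1.23 of the footprints. Got2 had 76.5% of coding windows elsewhere and Got1 0%, and the part of this was not tested. With coding length used for the RNA as well, Got1 was at 194 and Got2 at 232 RNA reads per kb. Cytosolic Idh1 held 53.1% ± 3.24 of the RNA and 80.5% ± 4.44 of the footprints of the 2 NADP-dependent isocitrate dehydrogenases. Pyruvate carboxylase (Pcx), which refills oxaloacetate and is known as an astrocyte enzyme, was low, at 17.2 ± 0.688 and 25.3 ± 2.59.

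**Figure D2:**
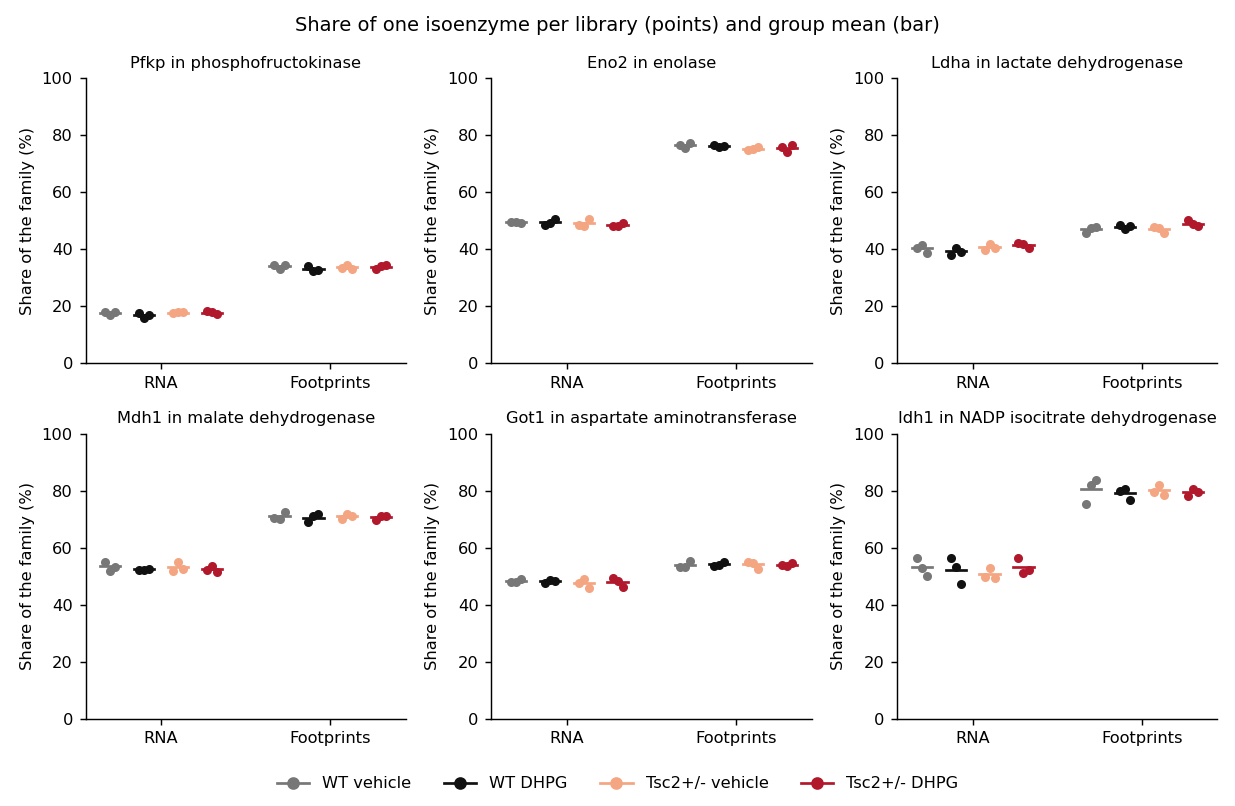
Share of 1 isoenzyme in its family (y axis, %), for RNA and footprints per length, in each library (points) with the group mean (bar), coloured by group. Pfkp, Eno2, Mdh1 and Idh1 held a larger share of the footprints than of the RNA in all 12 libraries, while each share kept to a narrow range over the 4 groups.

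The shares varied little across groups. Over the 12 libraries, Eno2 stayed between 48.0% and 50.8% of enolase RNA and between 74.3% and 77.3% of its footprints, and Mdh1 between 51.5% and 55.1% and between 69.0% and 72.5%. Idh1 was the least steady, at 47.4% to 56.6% of RNA and 75.5% to 84.0% of footprints.

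Footprints per RNA, the ratio of the 2 levels per length, put the members above most genes in WT vehicle. Their median was 3.43, with 3.40, 3.54 and 3.20 in the 3 replicates, and that of all 12541 genes was 2.23. The member at the middle of the order stood at the 71.8th percentile of all genes, and 28 of 38 were above the median of all genes. By role, the medians were 2.24 for the upper part of glycolysis, 3.74 for the lower part, 3.29 for the pyruvate dehydrogenase complex, 3.11 for the TCA cycle and 4.24 for the shuttle enzymes. Hk1, Pfkl, Pfkm and Aldoa, below the median of all genes here, stood above it with coding length for both assays. The count of 28 and the place of upper glycolysis thus depend on the length used. The 21 genes with no window elsewhere had a median of 3.16, and the 3 with some but under 10% of windows elsewhere had one of 3.29. For the 10 genes with 10% to 80% it was 3.54. The 4 with over 80% had a median of 2.70 and ran from 1.12 to 6.05.

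Mdh1 was highest, at 8.73, 8.93 and 7.87 footprints per RNA, and every one of these values was above all values of every other member. Idh1 came next at 6.12, 7.10 and 6.04, then Pgk1 at 6.39, 6.23 and 5.54, and these 2 overlapped. Dld at 5.16 ± 0.689, Ldha at 4.86 ± 0.234, Idh3a at 4.78 ± 0.256 and Pfkp at 4.72 ± 0.484 followed without a gap beyond their SD. At the low end were Eno1 at 1.23, 1.14 and 0.986, Pcx at 1.48 ± 0.210, Gapdh at 1.63 ± 0.165 and Idh2 at 2.58, 1.73 and 1.15. Eno1 lay below all values of every other member except Idh2, whose lowest library was at 1.15. With coding length for both assays Mdh1 was again the highest, at 4.64, and Eno1 the lowest, at 0.810, while Pgk1 and Idh1 changed places. Other places shifted further. Gapdh moved from 36th to 30th and Idh2 from 35th to 28th, and Ogdh (37th) and Cs (36th) joined the low end. Idh3a moved from 6th to 14th.

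**Figure D3:**
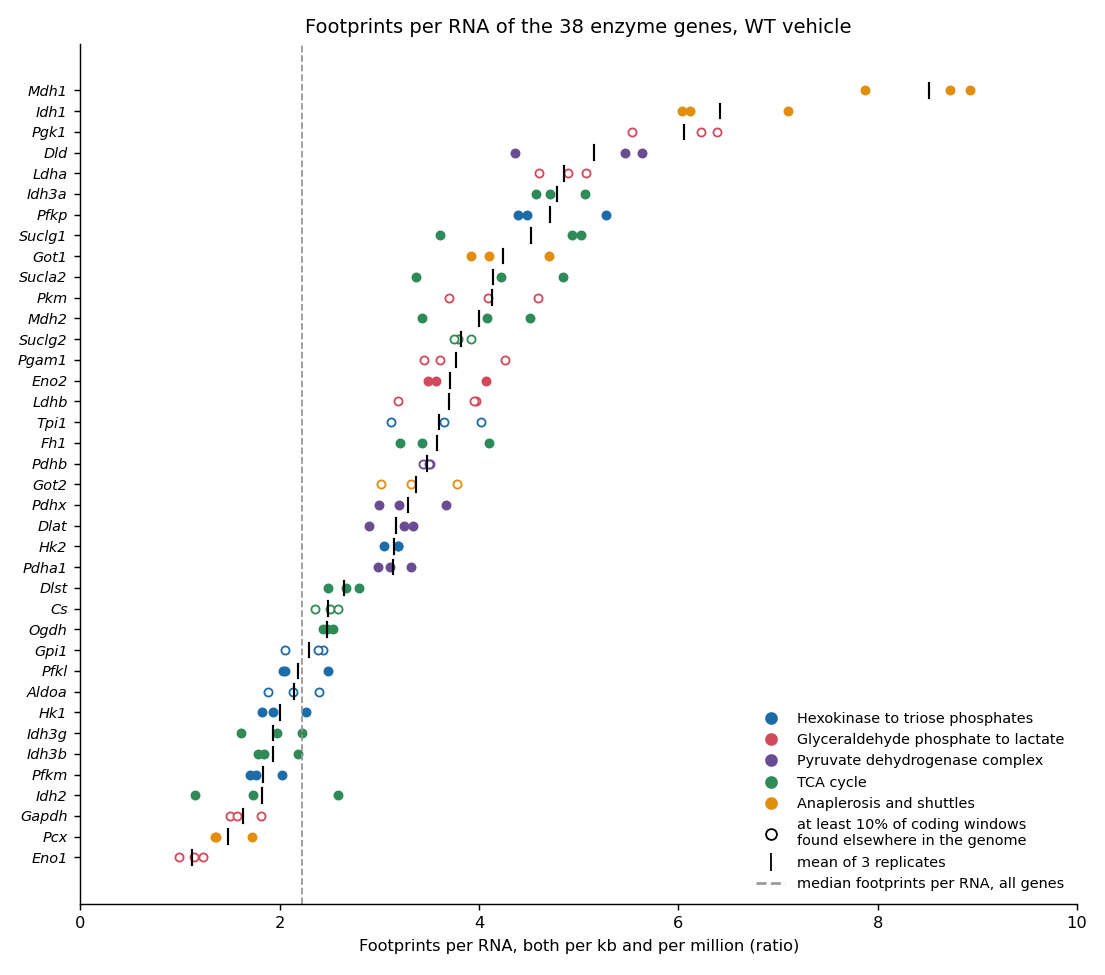
Footprints per RNA in WT vehicle (x axis, ratio of levels per kb) for the 38 genes in order of the mean (y axis). Points are the 3 replicates, the vertical tick is their mean, open points mark genes with at least 10% of coding windows elsewhere, and the dashed line is the median of all genes (2.23). The order runs from Mdh1 (8.51) to Eno1 (1.12).

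Between the groups, no member passed the test in any comparison. RNA, RPFs and the change of RPFs relative to RNA (translational efficiency, TE) were each tested in 5 comparisons with edgeR's quasi-likelihood test, fitted across all genes and called at a Benjamini-Hochberg adjusted p under 0.1, and 0 of 38 members were called in each of the 15. At an unadjusted p under 0.05 there were 5 of 190 member tests in RNA, 4 of 190 in RPF and 7 of 190 in TE. DESeq2 called 0 members in each of the 15, with 0 to 4 at an unadjusted p under 0.05, and ComBat followed by DESeq2, run for RNA and RPF, called 0 with 0 to 3 at that p. Fitted log2 changes of members ran from -0.20 to 0.28 in RNA, from -0.24 to 0.18 in RPF and from -0.43 to 0.25 in TE. The 95% intervals reached a median of 0.113, 0.115 and 0.161 to either side of the estimate on the log2 scale. Differences within these intervals could not be told from 0 with 3 pools a group. The intervals are not adjusted for the number of genes, so larger changes could go uncalled too. With DHPG in WT, the interval of Sucla2 RNA ran from -0.33 to -0.07, and its edgeR adjusted p was 0.712. In each direct comparison of groups, the libraries did not overlap for 1 to 3 of the 38 members in RNA. This was 1 to 5 in RPF and 1 to 4 in TE. The share of all genes without overlap was not counted, so these counts are no result about the members. How many genes or marker lists would be apart by chance with 3 libraries a group was not tested. Lack of overlap is therefore given below as description only.

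**Figure D4:**
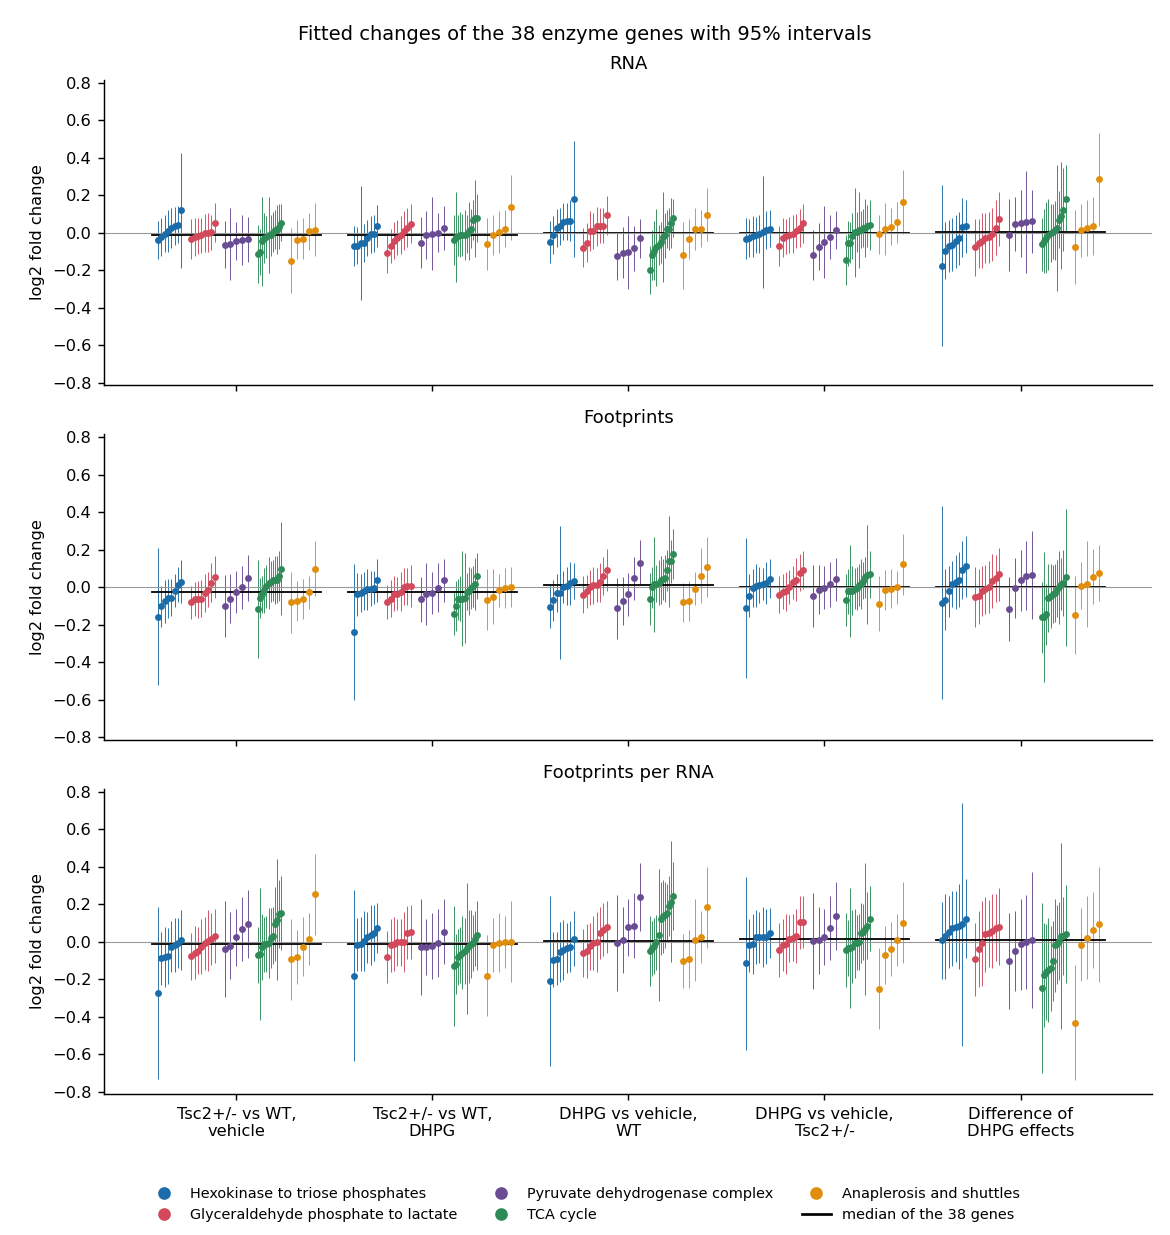
Fitted log2 fold changes (y axis) with 95% intervals of the 38 genes in the 5 comparisons (x axis), for RNA, footprints and footprints per RNA, coloured by role and sorted by size within each role. The black bars, the medians of the 38 genes, lie between -0.026 and 0.014, and the widest intervals belong to Hk2, the gene with the fewest counts.

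The basal effect of genotype was measured in vehicle. In RNA, 0 of 38 members were called against 0.0896% of all genes, and 0 were at an unadjusted p under 0.05 against 4.9%. In RPF, 0 were called against 0.0233%, and 0 were at an unadjusted p under 0.05 against 6.55%. In TE, 0 were called against 0% of all genes, and 1 was at an unadjusted p under 0.05 against 5.74%. The median log2 change of the members was -0.015 in RNA, -0.026 in RPF and -0.013 in TE, with -0.0021, -0.0021 and -9.29e-05 over all genes. The 95% interval lay within 0.25 of 0 for 33 members in RNA, 34 in RPF and 28 in TE. Of the 11 summed marker lists, 3 did not overlap in RNA. These were neurons (9434 to 10174.5 CPM in WT, 10269.5 to 11046 in Tsc2+/-), CA3 (513 to 542 and 545 to 586) and blood (20.9 to 26.8 and 2.59 to 16.5). A single RNA in each list was at an unadjusted p under 0.05 by edgeR's test. These were Camk2a for neurons (log2 0.155), Nptx1 for CA3 (0.135) and Hbb-bt for blood (-1.87). In RPF it was 1 list, neurons, at 8648 to 9539.5 CPM in WT and 8543 to 8568 in Tsc2+/-. Their part in the values below was not tested.

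The member with the smallest p in TE was Idh1 (chromosome 1, 65158616 to 65186479), which makes NADPH in the cytosol. Its footprint CPM per RNA CPM was 3.18, 3.68 and 3.22 in WT vehicle and 4.07, 3.89 and 3.99 in Tsc2+/- vehicle. The Tsc2+/- values lay above all WT values, with a log2 change of 0.25 (SE 0.108, unadjusted p 0.0241, edgeR adjusted p 0.862). Idh1 RNA was at 34.1, 32.7 and 32.3 CPM in WT and 29.6, 32.5 and 27.3 in Tsc2+/-, which overlapped (log2 -0.15, SE 0.0861, edgeR adjusted p 0.983). In RPF the smallest p-values belonged to Pfkm, the muscle form of phosphofructokinase, and Pkm. Pfkm was at 480, 449 and 450 CPM in WT and 439, 422 and 424 in Tsc2+/- (log2 -0.10, SE 0.0540, edgeR adjusted p 0.770). Pkm was at 2140, 1992 and 1944 CPM in WT and 1919, 1976 and 1851 in Tsc2+/- (log2 -0.08, SE 0.0435, edgeR adjusted p 0.774). The groups did not overlap for Pfkm and overlapped for Pkm. Ogdh RNA differed by less, 310, 318 and 311 CPM in WT against 329, 321 and 325 in Tsc2+/- (log2 0.05, edgeR adjusted p 0.991), with no overlap. Fh1, which makes malate from fumarate, had 3.08, 3.68 and 2.96 footprint CPM per RNA CPM in WT and 3.23, 3.71 and 3.83 in Tsc2+/-, with overlap (log2 0.15, SE 0.0974, edgeR adjusted p 0.876).

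Under DHPG the genotypes were set against each other in the same way. In RNA, 0 members were called against 0.0482% of all genes, and 1 was at an unadjusted p under 0.05 against 4.64%. In RPF, 0 were called against 0.0155%, and 1 was at an unadjusted p under 0.05 against 4.13%. In TE, 0 were called against 0%, and 0 were at an unadjusted p under 0.05 against 3.04%. In RPF 30 of the 38 members had a log2 change below 0, with a median of -0.024, while 48.6% of all genes were above 0. The 38 genes together took 2.16% to 2.19% of RPF counts in WT DHPG and 2.11% to 2.13% in Tsc2+/- DHPG, which did not overlap, and 2.12% to 2.207% and 2.099% to 2.15% in vehicle, which did. Markers of the dentate gyrus (6 genes) moved in the same comparison, at 68.7 to 80.9 RPF CPM in WT DHPG and 48.4 to 58.5 in Tsc2+/- DHPG, and at 86.3 to 102 and 66.9 to 79.4 CPM in RNA, without overlap in either, and Tdo2 was under 1 CPM in every RNA library. Of these, Prox1, which marks granule cells, had a log2 change of -0.40 in RPF (SE 0.135, edgeR adjusted p 0.9995) and -0.50 in RNA (SE 0.121, edgeR adjusted p 0.240). Summed markers of neurons (10120.3 to 10503 and 10506 to 10631 CPM) and CA1 (1824 to 1838 and 1843 to 1885) were also apart in RNA, as were those of blood in RPF (0.253 to 1.53 and 0 to 0.247). The globin gene Hbb-bt fell in RNA (edgeR adjusted p 0.0453), the 1 marker gene called in any comparison. The part of these markers in the values of the members was not tested.

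Ldhb, the lactate dehydrogenase form that favours pyruvate, was at 266, 267 and 274 RNA CPM in WT DHPG and at 244, 248 and 256.2 in Tsc2+/- DHPG. The groups did not overlap, and the log2 change was -0.11 (SE 0.0527, unadjusted p 0.0443, edgeR adjusted p 0.997). Idh3b (chromosome 2, 130279309 to 130284451) was at 340, 347 and 320 RPF CPM in WT DHPG and at 287, 319 and 309 in Tsc2+/- DHPG, without overlap (log2 -0.14, SE 0.0561, unadjusted p 0.0172, edgeR adjusted p 0.9995). Its footprints per RNA were 1.68, 1.59 and 1.52 against 1.43, 1.49 and 1.48, also apart (log2 -0.12, SE 0.0792, edgeR adjusted p 0.99997). Eno2 was at 1520, 1489 and 1494 RPF CPM against 1437, 1353 and 1478 (log2 -0.08, SE 0.0446, edgeR adjusted p 0.9995), also without overlap. Idh1 had the opposite sign to its basal values, with RNA at 34.8, 30.1 and 26.7 CPM in WT and 36.5, 33.0 and 30.7 in Tsc2+/- (log2 0.13, SE 0.0864) and footprints per RNA of 3.50, 4.24 and 3.67 against 3.15, 3.42 and 3.45 (log2 -0.18, SE 0.107, edgeR adjusted p 0.99997), of which the latter did not overlap.

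The response to 5 min of DHPG was asked first in WT. In RNA, 0 members were called against 0% of all genes, and 1 was at an unadjusted p under 0.05 against 6.45%. In RPF, 0 were called against 0.0311%, and 3 were at an unadjusted p under 0.05 against 6.71%. In TE, 0 were called against 0.0704%, and 4 were at an unadjusted p under 0.05 against 9.06%, all 4 with a higher value after DHPG. In the RPF and TE fits DESeq2 left 3 members each without an adjusted p, as it did in RPF between genotypes in vehicle. By role, the TCA cycle had a median TE change of 0.13 with 8 of 12 genes above 0, and the upper part of glycolysis one of -0.05 with 7 of 8 below 0, where 50.1% of all genes were above 0. With DHPG in Tsc2+/- the same roles had medians of -0.0027, with 5 of 12 above 0, and 0.02, with 3 of 8 below 0. Over the 5 roles and 5 comparisons, role medians in TE ran from -0.06 to 0.13, so that of the TCA cycle here was the highest of all. These 2 roles were not picked by a set rule, and no role was tested as a set. The median over all 38 with DHPG in WT was 0.0032. Summed astrocyte markers were at 2941 to 3048 RNA CPM in vehicle and 3049 to 3153 after DHPG, the 1 of 11 lists without overlap in RNA. In RPF 2 lists did not overlap, neurons (8648 to 9539.5 and 8484 to 8636) and choroid plexus (18.3 to 20.1 and 12.7 to 18.2). Of the choroid plexus genes, the defining marker Ttr was under 1 CPM in every library, and Aqp1 and Slc4a5 in every RPF library of both groups. The part of these lists was not tested.

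The smallest RNA p-value belonged to Sucla2 (chromosome 14, 73552786 to 73596144), the ATP-forming partner in succinyl-CoA ligase. Sucla2 RNA was at 125, 105 and 113 CPM in WT vehicle and at 103, 99.7 and 95.8 in WT DHPG. Every DHPG value lay below every vehicle value, with a log2 change of -0.20 (SE 0.0623, unadjusted p 0.00278, edgeR adjusted p 0.712). Its RPFs were at 266, 321 and 309 CPM in vehicle and 309, 292 and 323 after DHPG, and its footprints per RNA at 2.13, 3.06 and 2.74 and then 3.01, 2.93 and 3.37. These overlapped, and the TE change was 0.25 (SE 0.0897, unadjusted p 0.00887, edgeR adjusted p 0.357), in the same direction in 2 of 3 replicate numbers. Without WT vehicle replicate 2, Sucla2 was called in RNA (log2 -0.27, edgeR adjusted p 0.0738) and, with that replicate left out of both assays, in TE (log2 0.38, edgeR adjusted p 0.0273), so whether it was called turned on 1 vehicle replicate. Pdhb RNA was at 113, 107 and 109 CPM in vehicle and 107, 105 and 89.8 after DHPG (log2 -0.12, SE 0.0630, edgeR adjusted p 0.772), and the DHPG range was set by its replicate 3.

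In RPF the 2 regulatory subunits of the NAD-dependent isocitrate dehydrogenase and Dld had the smallest p-values. Idh3g was at 158, 200 and 174 RPF CPM in WT vehicle and 195, 212 and 194 after DHPG (log2 0.18, SE 0.0655, unadjusted p 0.0111, edgeR adjusted p 0.627). Idh3b was at 284, 324 and 309 and then at 340, 347 and 320 (log2 0.14, SE 0.0562, unadjusted p 0.0195, edgeR adjusted p 0.674). Dld was at 228, 277 and 267 and then at 264, 291 and 288 (log2 0.13, SE 0.0595, unadjusted p 0.0358, edgeR adjusted p 0.727). For all 3 genes the groups overlapped, although each same-numbered contrast was above 0. Dld (chromosome 12, 31331562 to 31351471), the E3 subunit, had footprints per RNA of 2.82, 3.64 and 3.62 in vehicle and 3.33, 4.31 and 4.27 after DHPG. In both groups replicate 1 was the low library, and the log2 TE change was 0.24 (SE 0.0903, unadjusted p 0.0119, edgeR adjusted p 0.382). Idh3b had 1.33, 1.58 and 1.32 footprints per RNA in vehicle against 1.68, 1.59 and 1.52 (log2 0.19, SE 0.0793, edgeR adjusted p 0.452). Idh3a, the catalytic subunit, had 2.04, 2.20 and 2.03 against 2.24, 2.39 and 2.35, without overlap (log2 0.16, SE 0.0749, unadjusted p 0.0439, edgeR adjusted p 0.532).

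**Figure D5:**
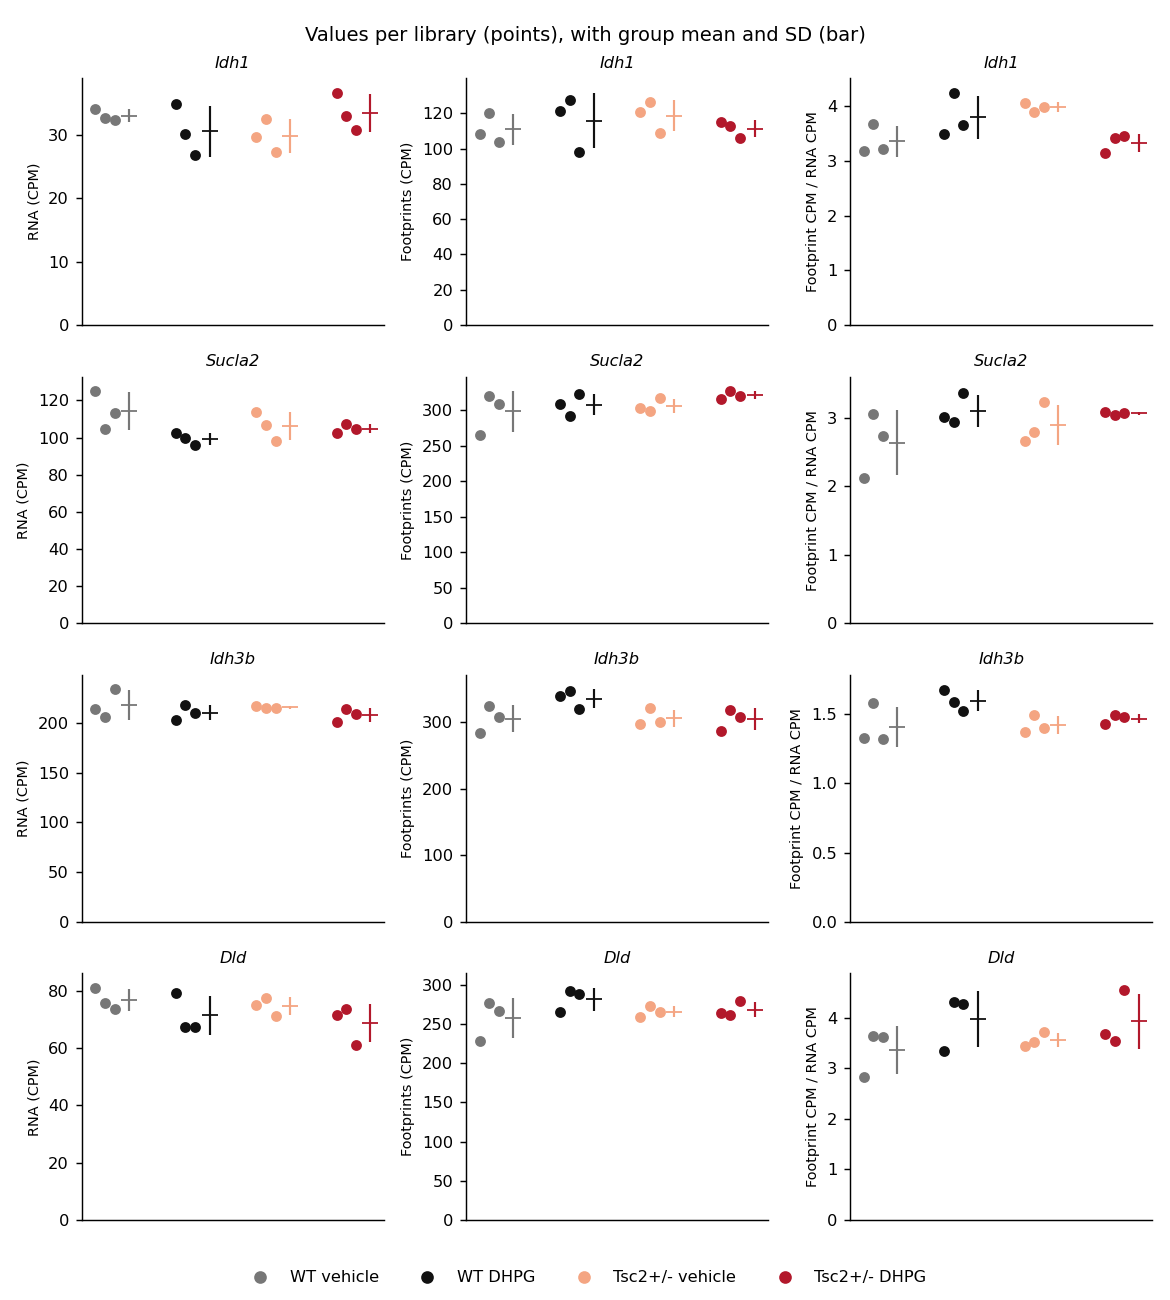
RNA and footprints in CPM and the ratio of footprint CPM to RNA CPM (y axes, from 0) in each library (points, replicates 1 to 3 from left to right) for Idh1, Sucla2, Idh3b and Dld, with the group mean and SD beside them. Idh1 footprints per RNA were 3.89 to 4.07 in Tsc2+/- vehicle and 3.15 to 3.45 in Tsc2+/- DHPG, and Sucla2 RNA was 105 to 125 CPM in WT vehicle and 95.8 to 103 in WT DHPG.

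In Tsc2+/- slices DHPG gave 0 members called in RNA against 0% of all genes, with 1 at an unadjusted p under 0.05 against 4.32%. In RPF 0 were called against 0%, with 0 at an unadjusted p under 0.05 against 4.03%. In TE 0 were called against 0%, with 1 at an unadjusted p under 0.05 against 3.68%. No marker list was without overlap in RNA. In RPF 2 were, those of the dentate gyrus (64.2 to 68.4 CPM in vehicle and 48.4 to 58.5 after DHPG) and of the choroid plexus (17.7 to 19.9 and 15.1 to 16.1). Of the choroid plexus genes, Ttr, Aqp1 and Slc4a5 were under 1 CPM in every RPF library of both groups. The part of these lists was not tested. Suclg1, the subunit common to both forms of succinyl-CoA ligase, was at 70.7, 75.3 and 75.3 RNA CPM in vehicle and 65.7, 65.5 and 68.8 after DHPG. These did not overlap (log2 -0.15, SE 0.0652, unadjusted p 0.0307, edgeR adjusted p 0.9998). Idh1 was at 29.6, 32.5 and 27.3 RNA CPM in vehicle and 36.5, 33.0 and 30.7 after DHPG, with overlap (log2 0.16, SE 0.0854, edgeR adjusted p 0.9998). Its footprints per RNA went from 4.07, 3.89 and 3.99 to 3.15, 3.42 and 3.45, without overlap (log2 -0.25, SE 0.107, unadjusted p 0.0235, edgeR adjusted p 0.9994). Among glycolytic genes, Pgam1 had RPFs of 783, 822 and 772 CPM and then 830, 868 and 834 (log2 0.09, SE 0.0494, edgeR adjusted p 0.9999), and footprints per RNA of 1.46, 1.45 and 1.43 and then 1.53, 1.58 and 1.57 (log2 0.10, SE 0.0692). Neither pair of groups overlapped. Ldha RPFs were at 656, 694 and 642 CPM and then 702, 716 and 684, with overlap (log2 0.08, SE 0.0484, edgeR adjusted p 0.9999).

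The DHPG effect was then compared between the genotypes, as the Tsc2+/- change minus the WT change. This called 0 members in RNA against 0% of all genes, with 2 at an unadjusted p under 0.05 against 3.47%. In RPF it called 0 against 0%, with 0 at an unadjusted p under 0.05 against 3.81%. In TE it called 0 against 0%, with 1 at an unadjusted p under 0.05 against 4.06%. The 1 in TE was Idh1, whose difference of -0.43 (SE 0.152, 95% interval -0.74 to -0.13, unadjusted p 0.00663, edgeR adjusted p 0.999) had the largest size of any member in any comparison. Its parts were a TE change of 0.18 in WT and -0.25 in Tsc2+/-. In RNA Idh1 differed by 0.28 (SE 0.122, unadjusted p 0.0251) and Sucla2 by 0.18 (SE 0.0876, unadjusted p 0.0455), both with an edgeR adjusted p of 0.999. In RPF the smallest p-values were those of Idh3b at -0.14 (SE 0.0797) and Idh3g at -0.16 (SE 0.0927), both with an edgeR adjusted p of 0.998. In TE Fh1 differed by -0.18 (SE 0.138). The comparisons of this design share groups, so the WT vehicle libraries enter the basal genotype effect, the DHPG effect in WT and this difference alike.

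The rest of the pathway was measured through 6 lists with 82 genes, of which 74 were tested in RNA and 71 in RPF and TE. None of them was called in any of the 15 comparisons by edgeR's quasi-likelihood test, and 2 to 7 of them were at an unadjusted p under 0.05 in a comparison. These were 2.70% to 9.86% of those tested, against 3.04% to 9.06% of all genes, and above the share of all genes in 7 of the 15 comparisons. The highest share was that of TE with DHPG in Tsc2+/-, 7 of 71 against 3.68% of all genes. Among the 10 transporters of glucose, lactate and pyruvate, Mpc1, a subunit of the carrier that brings pyruvate into mitochondria, had the smallest p-values. Its log2 difference was -0.20 (SE 0.0628) in RNA and 0.37 in TE (SE 0.0942, unadjusted p 0.000289, edgeR adjusted p 0.417) in Tsc2+/- against WT vehicle, and in TE it was 0.33 (SE 0.0941, edgeR adjusted p 0.226) with DHPG in WT. Its partner Mpc2 had a TE change of 0.31 (SE 0.109, edgeR adjusted p 0.343) with DHPG in WT. Of the 7 kinases and phosphatases that switch pyruvate dehydrogenase off and on, the kinase Pdk3 had an RNA change of 0.27 (SE 0.0864, edgeR adjusted p 0.783) in Tsc2+/- against WT under DHPG. The phosphatase Pdp1 had a TE change of 0.26 (SE 0.115) in vehicle and 0.28 (SE 0.114) under DHPG in the same direction.

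Of the 24 other TCA cycle and shuttle genes, of which 23 were tested, Sdhb, the iron-sulfur subunit of succinate dehydrogenase, had an RNA change of -0.24 (SE 0.0834, edgeR adjusted p 0.921) and a TE change of 0.28 (SE 0.101, edgeR adjusted p 0.824) in Tsc2+/- against WT vehicle. The dicarboxylate carrier Slc25a10 had an RNA change of 0.41 (SE 0.119, edgeR adjusted p 0.9998) with DHPG in Tsc2+/-. Of the 21 other glycolysis enzymes and regulators 12 to 14 were tested, and the muscle enolase Eno3 had an RNA change of 0.77 (SE 0.303, edgeR adjusted p 0.951) between genotypes under DHPG. Of the 8 pentose phosphate genes, Pgd had an RNA change of -0.21 (SE 0.0923) with DHPG in Tsc2+/-. Of the 12 hypoxia-inducible factors and their targets outside glycolysis, Ankrd37 had an RNA change of -1.40 (SE 0.362, unadjusted p 0.000445, edgeR adjusted p 0.323) in Tsc2+/- against WT vehicle. The prolyl hydroxylase Egln2 had RPF changes of -0.57 (SE 0.161, edgeR adjusted p 0.403) in WT and -0.44 (SE 0.170, edgeR adjusted p 0.9999) in Tsc2+/- with DHPG. The list medians ran from -0.18 to 0.15 over the 6 lists and 15 comparisons.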

How the data were processed

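RNA and RPF libraries (12 each) took their groups from the assay, genotype and treatment given in GEO. Per the study's methods, the authors trimmed adapters, dropped reads matching rRNA or tRNA with Bowtie2, and aligned the rest to mm10 with TopHat2. They discarded multi-mapping reads and UMI duplicates. The authors deposited RSEM expected counts as whole numbers, for RNA over transcripts and for RPFs over coding sequences less 30 bases at each end. Batch correction by the study came later and is not in these values.

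Genes were kept by filterByExpr at a minimum count of 10 (14516 for RNA, 12877 for RPF, 12785 for both) and scaled by TMM. The main test was edgeR 4.0.16's two-sided quasi-likelihood F test in R 4.3.3, with group and replicate number, over the 12 libraries of an assay. TE was tested over all 24 libraries as the RPF change minus the RNA change. Per the study, RNA and RPF libraries were made from parts of the same lysate, and the main fit did not use this pairing. Replicate number stood for the batch. Called means a Benjamini-Hochberg adjusted p under 0.1. The fits were tested on simulated counts. Depth was 14801679 to 24067838 counts per RNA library and 5296006 to 13613673 per RPF library. The SEs and intervals include the counting error of the counts as deposited. In RPF replicates 2 and 3, 97.9% to 98.5% of non-zero counts were even, for a reason the sources do not give. For these libraries the depth and counting error may therefore not match the number of fragments, which was not tested.

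Levels used the RefSeq transcript with the longest coding sequence and genes with at least 300 coding bases, which gave a length for 12541 genes (98.1%).

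Library values are given, for each comparison, for up to 2 members with the smallest p among those that moved alike in 3 of 3 same-numbered contrasts (not required for the difference between genotypes). Sucla2 and Idh3a in TE and Dld in RPF were added after their values were seen. At most 3 genes at an unadjusted p under 0.05 are named per pathway list. Members and lists were chosen with earlier results of these data known. Alternatives were DESeq2 1.42.0, ComBat (sva 3.50.0) then DESeq2, no replicate number, RLE scaling, no filter on low counts, a threshold of 0.05, only the groups compared, RPF counts of replicates 2 and 3 divided by 2, the lysate as a block, other lengths, and leaving out replicates or libraries.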

Additional observations from a re-analysis of the deposited data

How the results depend on the processing

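The count of members called was 0 in 15 comparisons, and it stayed at 0 in all alternatives but 2. It was 1 for RNA in the DHPG effect in WT without WT vehicle RNA replicate 2 (range 0 to 1 over the left-out replicates and libraries), and 1 for TE in the same comparison without WT vehicle replicate 2 (range 0 to 1). The gene was Sucla2 both times, and the cause was not tested. Over all genes, the count called differed by tool: for TE in the DHPG effect in WT it was 9 with edgeR and 101 with DESeq2, for RPF in that comparison 4 and 14, and for RPF between genotypes in vehicle 3 and 10. Without replicate number as a block the count of members was 0 in all 15 comparisons, while over all genes it was 6 in place of 13 for RNA between genotypes in vehicle and 1 in place of 9 for TE in the DHPG effect in WT. The labels do not say what the numbers mark, and not every same-numbered pair correlated above 0.1: deviations of same-numbered libraries correlated at 0.0228 to 0.143 in RNA and at 0.033 to 0.263 in RPF, against -0.126 to 0.024 and -0.194 to 0.0667 for different numbers. As a hint from the data, every library of both assays correlated best, on average, with its own number (12 of 12 in each). Over 33 named changes of members, 700 alternative values kept their direction. Most of these changes were named because 3 same-numbered contrasts moved alike, and the alternatives reuse the same libraries. The kept direction was thus largely set by the choice and does not measure robustness. Sizes moved, as for Fh1 TE in vehicle (0.04 to 0.23), Pdhb RNA with DHPG in WT (-0.18 to -0.05), the RPF difference of Idh3b (-0.21 to -0.06) and Sucla2 TE with DHPG in WT (0.12 to 0.40). The median of footprints per RNA of the members in WT vehicle was 1.71 in place of 3.43 with coding length for both assays, where all genes had 1.11 in place of 2.23. That scale divides RNA by a shorter length by construction. Of the isoenzyme shares, 10 moved beyond their SD with another length, and the order of Eno1 and Eno2 RNA turned. With 3 pools a group, changes of single genes within their intervals could not be told from 0, and larger ones could go uncalled. Hk2 had the fewest counts.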
